A study of Mus musculus with 4 samples.

Results

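The interleukin 1 receptor family was followed in the RNA of splenic CD4+CD25+ cells through 7 genes chosen by name: Il1rl1, Il18r1, Il18rap, Il1r1, Il1r2, Il1rl2 and Il1rap. The table holds 6 of them among its 16383 genes, and all 6 passed the filter on low values with 11571 genes in all. Il1rl2, which encodes the receptor chain for interleukin 36, was not analysed here. The genes were picked with the difference between the genotypes already known, so that difference is a description for them, also where the fit over all genes covers them, and it supports nothing here.

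Cells were sorted as CD4+CD25+, the surface phenotype of regulatory T cells (Tregs), from spleens of 7-week-old mice. The wild-type (WT) group had 2 libraries, and the Helios KO group, Ikzf2-/- mice, also had 2. Ikzf2 encodes the zinc finger transcription factor Helios. The labels name no treatment, Cre line, strain or sex, and they do not say whether each library came from 1 mouse or from pooled mice, or which exons the null allele lacks. The spread between the 2 libraries of a group may therefore be partly technical.

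Receptors of this family carry extracellular immunoglobulin-like domains, and most carry an intracellular TIR domain that recruits the adaptor MyD88. Each cytokine binds its own chain and then a co-receptor: IL-33 binds ST2 (Il1rl1) and IL-1 binds Il1r1, both with Il1rap, whereas IL-18 binds Il18r1 with Il18rap. Il1r2 binds IL-1 without a signalling domain and acts as a decoy. ST2 marks Tregs of tissues such as fat, lung and gut, IL-18 receptors occur on effector Tregs, Th1 cells and NK cells, and Il1r2 is known from activated Tregs.

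In mm10, 6 of the 7 genes lie side by side on the plus strand of chromosome 1, from 40074079 to 40551705, a span of 478 kb. Their order is Il1r2 (ENSMUSG00000026073, 40074079 to 40125231), Il1r1 (ENSMUSG00000026072, 40225080 to 40317257), Il1rl2 (ENSMUSG00000070942, 40324610 to 40367562), Il1rl1 (ENSMUSG00000026069, 40429570 to 40465415), Il18r1 (ENSMUSG00000026070, 40465552 to 40500854) and Il18rap (ENSMUSG00000026068, 40515362 to 40551705). Il1rap (ENSMUSG00000022514) lies apart, on chromosome 16 from 26581704 to 26730117. The spacing is uneven. Il1r2 ends 99848 bases before Il1r1, whereas Il1rl1 ends 136 bases before Il18r1 begins, and 14507 bases separate Il18r1 from Il18rap. The library preparation did not mark strand, so reads of the antisense transcript Gm16894, which overlaps Il1r2 (40076228 to 40085851), cannot be told apart from those of Il1r2. The unclassified plus-strand genes Gm37347 and Gm38070 likewise lie inside Il1r2 and Il1r1, and the antisense gene Gm20319 overlaps the end of Il1rap.

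The bases before the start sites of the 3 adjacent genes Il1rl1, Il18r1 and Il18rap are shown because these neighbours differed in how they varied between libraries. They are from RefSeq (GRCm38.p6, the assembly of mm10, plus strand). Il1rl1 has 2 windows, 10.1 kb apart, and for Il18r1 the stretch printed is the 133 bases between the RefSeq end of Il1rl1 and its own first base. RefSeq ends Il1rl1 3 bases further downstream than GENCODE, whose ends give the gap of 136 bases above. Capitals mark matches on either strand to TGGGAA, a core bound by Ikaros family proteins, or AGATAA, a form of the GATA motif.
Il1rl1, upstream start, chr1:40429320-40429569: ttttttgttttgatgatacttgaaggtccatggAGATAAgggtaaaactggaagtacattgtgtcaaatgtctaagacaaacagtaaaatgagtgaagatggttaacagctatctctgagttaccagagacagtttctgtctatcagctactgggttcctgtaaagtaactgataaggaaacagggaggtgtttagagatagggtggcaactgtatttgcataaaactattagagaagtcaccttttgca
Il1rl1, downstream start, chr1:40439379-40439628: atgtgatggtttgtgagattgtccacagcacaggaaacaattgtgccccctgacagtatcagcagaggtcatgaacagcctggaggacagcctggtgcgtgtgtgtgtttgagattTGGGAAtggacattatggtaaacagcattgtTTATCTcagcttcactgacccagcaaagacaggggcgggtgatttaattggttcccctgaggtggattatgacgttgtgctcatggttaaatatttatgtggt
Il18r1, chr1:40465419-40465551: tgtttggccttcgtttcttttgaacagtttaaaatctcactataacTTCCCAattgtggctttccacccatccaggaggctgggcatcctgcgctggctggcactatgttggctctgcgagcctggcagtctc
Il18rap, chr1:40515112-40515361: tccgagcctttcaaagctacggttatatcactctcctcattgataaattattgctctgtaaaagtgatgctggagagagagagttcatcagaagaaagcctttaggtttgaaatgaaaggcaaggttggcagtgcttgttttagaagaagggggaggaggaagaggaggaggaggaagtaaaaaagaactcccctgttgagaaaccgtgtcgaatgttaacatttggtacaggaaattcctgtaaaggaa

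Windows of 250 bases before a start were found for all 7 genes, 11 windows in total. TGGGAA occurred in 6 of them, belonging to Il1r1, Il1rl1, Il18r1 and Il1rap, and in 21.6% of the 32851 RefSeq windows of that length. The first and second Il18r1 windows overlap and share 1 match. AGATAA occurred in 2, both of Il1rl1, against 9.99% of all windows. The AP-1 motif TGANTCA occurred in 0 (6.75% of all windows), and the STAT motif TTCNNNGAA in 2, of Il1r2 and of the most downstream Il18r1 start (7.02% of all windows), where it overlaps matches to TGGGAA. Il18rap had no match to any of the 4 motifs. These matches describe letters only and say nothing of binding.

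The 4 libraries held 42157138 to 52543073 reads over the genes of the table, and the 6 receptor genes rested on 26 to 3643 reads per library. Ikzf2 itself was at 5282 and 7864 in WT against 4396 and 3104 in the Helios KO libraries, and both knockout libraries were lower. Because the exons that the null allele lacks are not known here, these reads cannot check the genotype. Foxp3, the defining transcription factor of Tregs, was at 37578 and 33448 in WT against 41264 and 25224 in Helios KO, and Cd4 and Ctla4 were at 25410 or more in every library. Il2ra, which encodes CD25, was at 39462 to 40457 in the other libraries and at 26759 in Helios KO replicate 2. The summed level of 11 Treg markers was 223062 and 216646 in WT, 244695 in Helios KO replicate 1 and 181611 in replicate 2, so it was lowest in that library. Helios KO replicate 2 also stood apart in other markers: of 81 marker genes of other blood cells in 8 lists, 78 had their highest value there. In this bulk RNA, fewer cells of a type and less RNA per cell cannot be told apart.

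Il1r2, Il18r1 and Il1rl1 were the most abundant receptor transcripts in WT cells, and Il1r1 was the least abundant. Levels are scaled to the median transcript length (normalised reads per kb), and comparisons between genes depend on that length. Il1r2 averaged 1577 ± 419, Il18r1 1250 ± 226, Il1rl1 1183 ± 139, Il18rap 738 ± 15.7, Il1rap 435 ± 18.6 and Il1r1 30.7 ± 16.0 (SD, n = 2 each). The WT values of Il1r2 and Il18r1 overlapped, as did those of Il18r1 and Il1rl1, and the other neighbours in this order did not. Among the 11571 tested genes, the WT mean of Il1r2 ranked above 57.0% of genes, that of Il1rl1 above 50.4% and that of Il1r1 above 10.2%. The order between Il18rap and Il1rap depended on the length used. Divided by the longest annotated transcript, a choice made after seeing the data, Il18rap stood at 293 and Il1rap at 306, with overlapping libraries. With that length the WT values of Il1r2 (819 and 1198) and Il18r1 (622 and 804) did not overlap.

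**Figure D1:**
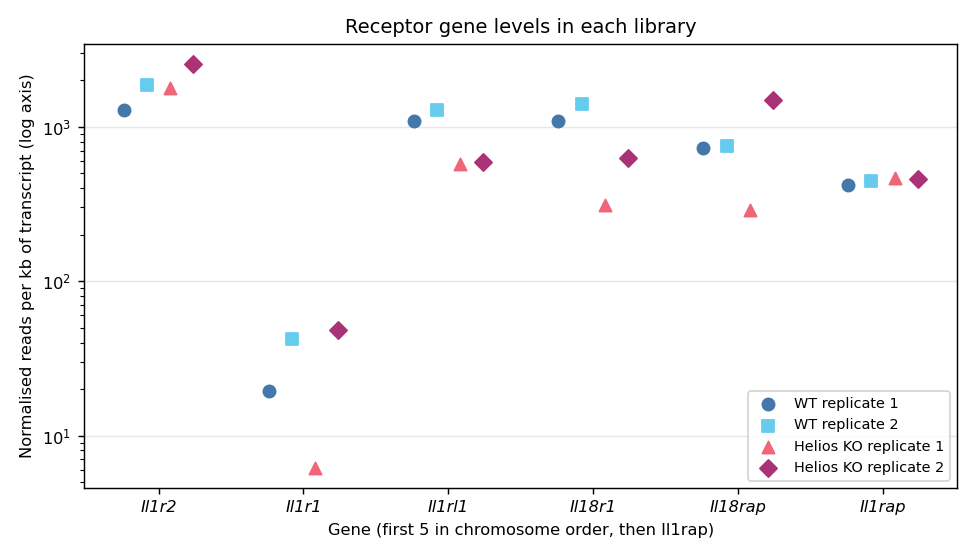
Normalised reads per kb of transcript (log axis) of the 6 receptor genes in each of the 4 libraries, 1 point per library. Il1rl1 and Il18r1 lie lower in both Helios KO libraries (573 and 588, 312 and 628) than in both WT libraries, whereas the Helios KO values of Il18rap (287 and 1480) lie on either side of WT.

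Among the ligand-binding chains, Il1rl1 and Il18r1 had lower levels in both Helios KO libraries. Il1rl1, which encodes the IL-33 receptor ST2, was at 1084 and 1281 in the WT libraries and at 573 and 588 in the Helios KO libraries. The groups did not overlap, and the knockout libraries lay closer to each other than the WT libraries did. The ratio to the WT mean was 0.485 in replicate 1 and 0.497 in replicate 2. On the log2(value + 1) scale the gap between the WT libraries was 0.24, against a fold change of -1.02 (SE 0.14).

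Il18r1, the IL-18-binding chain, was at 1090 and 1409 in WT against 312 and 628 in Helios KO. The groups did not overlap here either, but the knockout libraries were unequal, at differences of -1.99 and -0.98 from the WT mean. The fitted log2 fold change was -1.48 (SE 0.40). Behind these levels stood 642 and 1505 reads of Il18r1 in the knockout libraries and 2750 and 3573 in WT.

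The IL-18 co-receptor gene Il18rap was low in one knockout library and high in the other. It was at 727 and 749 in WT, at 287 in Helios KO replicate 1 and at 1480 in replicate 2. The WT libraries were nearly equal, and the knockout libraries lay on opposite sides of them, at -1.36 and 1.00 from the WT mean. The group means, 738 ± 15.7 in WT and 884 ± 844 in Helios KO (SD, n = 2 each), hide this split, and the log2 fold change of -0.18 (SE 0.99) describes neither knockout library.

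Il1r1, the signalling receptor of IL-1, was the receptor gene with the fewest reads. It was at 19.5 and 42.0 in WT against 6.20 and 47.9 in Helios KO, and the groups overlapped. Replicate 1 of the knockout held 26 reads of this gene, with an exact Poisson 95% interval of 17.0 to 38.1 reads that covers counting error only. Replicate 2 held 234, and the WT libraries 100 and 217. The log2 fold change was -0.66 (SE 1.05), with the knockout libraries on opposite sides of the WT mean.

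The decoy receptor gene Il1r2 was at 1281 and 1874 in WT against 1784 and 2542 in Helios KO. The groups overlapped, because replicate 1 of the knockout lay below WT replicate 2. Its log2 fold change was 0.46 (SE 0.27), against a gap of 0.55 between the WT libraries. The shared co-receptor gene Il1rap varied least, at 422 and 448 in WT against 462 and 459 in Helios KO, a log2 fold change of 0.08 (SE 0.15). Both knockout values of Il1rap lay above both WT values, and the fold change was smaller than its SE.

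Of the 6 receptor genes, 2 were lower in both Helios KO libraries than in both WT libraries, where 15.7% of all tested genes were, and 1 was higher in both, where 12.5% of all tested genes were. None was called at a Benjamini-Hochberg adjusted p under 0.05 in limma, and neither was any other gene (0 of 11571, 0.0%, with 386 at an unadjusted p under 0.05). limma-voom on recovered reads also called 0, with 387 at that unadjusted p. A permutation of 2 libraries against 2 cannot give a two-sided p below 0.333, so single genes have no usable exact test.

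Each knockout library was also set alone against the WT pair, on the assumption that a lone library varies as the WT pair does. These fits called 40 of 11340 genes (0.353%) with replicate 1 as the only knockout library and 758 of 11431 (6.63%) with replicate 2. The log2 differences of the receptor genes in these fits are the differences of the single knockout libraries from the WT mean, and Il1rl1 differed by -1.04 in the fit without replicate 2. The 2 fits share the WT pair, and nothing is read from their calls of genes chosen by this difference.

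Ratios between chains within a library do not depend on how libraries were scaled. The ratio of Il18rap to Il18r1, the 2 chains of the IL-18 receptor, was 0.667 and 0.531 in WT, 0.921 in Helios KO replicate 1 and 2.36 in replicate 2. Both knockout ratios exceeded both WT ratios, and in replicate 2 the level per kb of the co-receptor gene was above that of the binding chain. The size of such a ratio depends on the transcript lengths used. Divided by the longest annotated transcripts, Il18rap stood at 588 and Il18r1 at 358 in Helios KO replicate 2. The ratio of Il1rl1 to Il1rap, the genes of the 2 chains of the IL-33 receptor, was 2.57 and 2.86 in WT. It was 1.24 and 1.28 in Helios KO, without overlap. Il1rap varied little, so this ratio restates the difference of Il1rl1 that was known when the genes were picked. Annotated Il1rl1 transcripts end at different positions, and the gene level pools them.

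Il1rl1 and Il18r1 had nearly equal levels in 3 libraries when scaled to the median transcript length. Their ratio was 0.995 and 0.909 in WT and 0.937 in Helios KO replicate 2, but 1.84 in Helios KO replicate 1. Divided by the longest annotated transcripts, Il1rl1 stood at 544 and 643 in WT and at 295 in Helios KO replicate 2. Il18r1 was higher in each of these libraries, at 622, 804 and 358. For the IL-1 receptors, the decoy Il1r2 exceeded the signalling Il1r1 in every library. Their ratio was 65.8 and 44.6 in WT, 288 in Helios KO replicate 1, where Il1r1 had 26 reads, and 53.0 in replicate 2. The ratio of Il1r2 to Il1rap was 3.04 and 4.18 in WT and 3.86 and 5.54 in Helios KO, with overlapping groups.

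**Figure D2:**
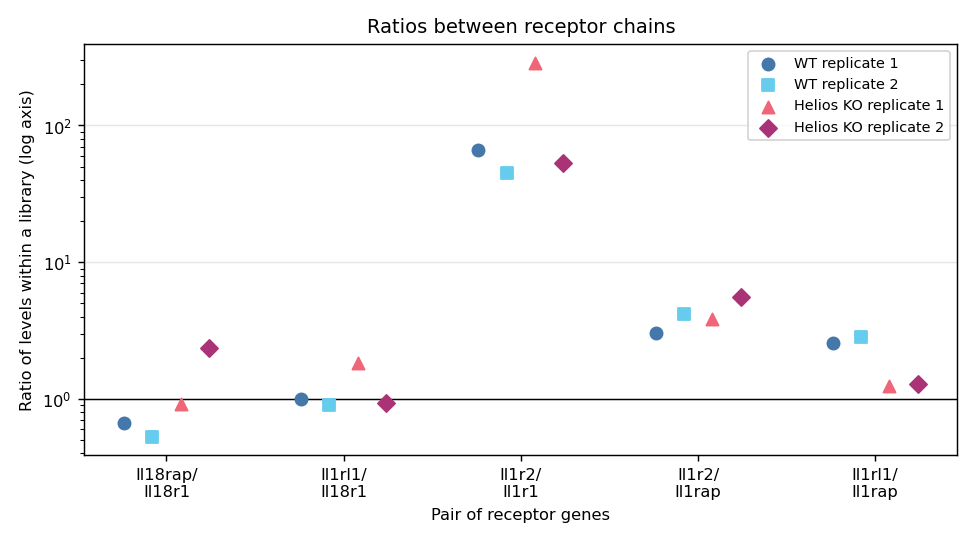
Ratios between the levels of 2 receptor genes within each library (log axis), 1 point per library. Il1rl1 to Il1rap lies at 1.24 and 1.28 in Helios KO against 2.57 and 2.86 in WT, and Il18rap to Il18r1 is highest in Helios KO replicate 2 (2.36).

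Within 1 Mb of the receptor genes on chromosome 1, 10 other genes were in the table and 8 were tested. None was called, 1 was lower (15.7% of all tested genes) and 1 higher (12.5% of all tested genes) in both Helios KO libraries, and 6 overlapped between the genotypes, so the counts were near the background. Npas2, which encodes a circadian transcription factor, is the most distant of these genes, starting 1236 kb before Il1rl1. It was at 336 and 365 in WT against 102 and 145 in Helios KO, a log2 fold change of -1.52 (SE 0.25). Its reads numbered 173 and 189 in WT and 43 and 71 in Helios KO. The gene higher in both was the small RNA gene Gm23722, which lies inside Rnf149. It was at 43.4 and 93.6 in WT against 195 and 152 in Helios KO. These values rested on few reads, 6 and 13 in WT and 22 and 20 in Helios KO.

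The tested genes nearest to the locus on either side had overlapping groups. Map4k4, a kinase gene just before Il1r2, was at 4329 and 3746 in WT against 3895 and 3648 in Helios KO (log2 fold change -0.10, SE 0.11). Mfsd9, beyond Il18rap, was at 30.3 and 29.3 in WT against 27.7 and 29.4 in Helios KO (-0.06, SE 0.44). Slc9a2, a sodium-proton exchanger gene between Il18rap and Mfsd9, was low and uneven, at 3.75 and 19.8 in WT against 2.76 and 10.3 in Helios KO.

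Further upstream, Cnot11, of the CCR4-NOT deadenylase complex, differed by a log2 fold change of 0.05 (SE 0.13), and for Rnf149, a ubiquitin ligase gene, it was 0.19 (SE 0.15). Tbc1d8 was at 63.2 and 40.1 in WT, 39.9 in Helios KO replicate 1 and 562 in replicate 2. Creg2 and Rfx8 were under the filter on low values. Of the 13 tested genes of this stretch, 3 were lower in both knockout libraries (Il1rl1, Il18r1 and Npas2), against 15.7% of all tested genes. Il1rl1 and Il18r1 were chosen with this difference known. Genes with overlapping groups lie between Npas2 and Il1rl1.

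**Figure D3:**
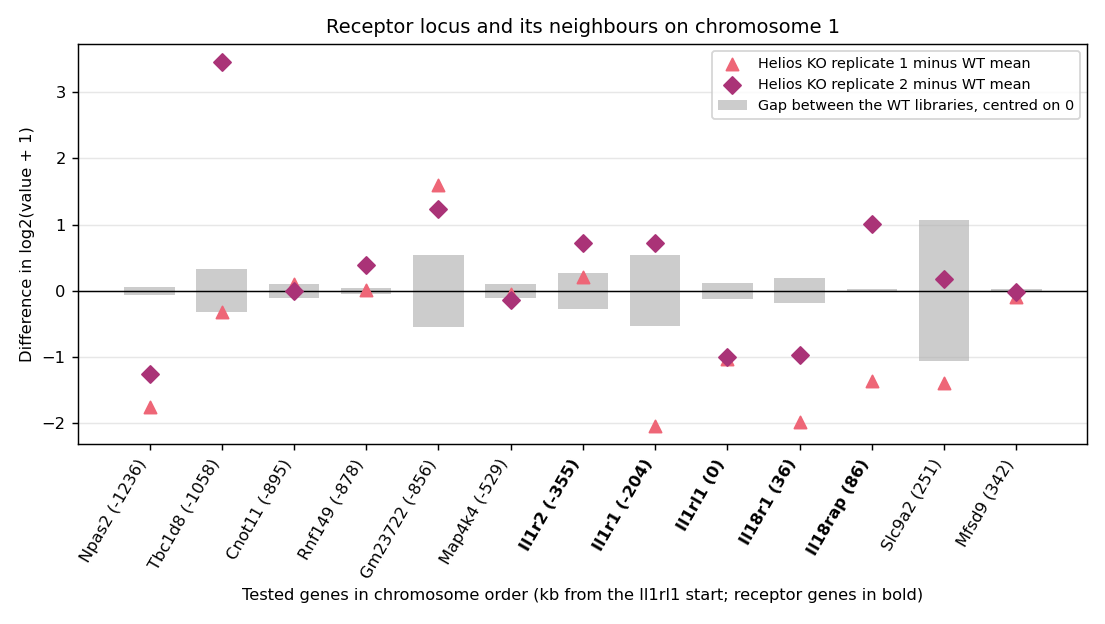
Difference of each Helios KO library from the WT mean in log2(value + 1) for the tested genes of the receptor locus (bold) and its neighbours, in chromosome order with the distance in kb from the start of Il1rl1. Grey bars give the gap between the WT libraries, and Npas2, Il1rl1 and Il18r1 are the genes with both points below 0 and outside the bar.

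Transcripts of the cytokines that these receptors bind were low, apart from Il1b and Il18 in Helios KO replicate 2. Of 10 ligand and antagonist genes, 5 were in the table and 3 were tested, and 0 were called. Il1b, which encodes IL-1 beta, was at 28.7 and 44.8 in WT, 38.4 in Helios KO replicate 1 and 3865 in replicate 2. Il18 was at 150 and 165 in WT, 119 in replicate 1 and 887 in replicate 2.

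Both cytokine genes were therefore highest in the library where markers of other blood cells were highest. In the other knockout library Il1b lay between the WT values, and Il18 lay below both. Il1a, which encodes IL-1 alpha, had 1 to 4 reads in the other libraries and 172 in Helios KO replicate 2. Il33 had 10 reads in WT replicate 2 and was listed at 0 in the other libraries. Il1rn, which encodes the IL-1 receptor antagonist, was at 47.8 and 86.9 in WT against 15.3 and 113 in Helios KO, an order of libraries shared with Il1r1.

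Sigirr, an inhibitory member of the receptor family, was far more abundant than any of the 6 genes. It was at 12772 and 11321 in WT against 11063 and 9575 in Helios KO, a log2 fold change of -0.22 (SE 0.12). Of 20 tested genes of MyD88 signalling, 6 were higher and 4 lower in both knockout libraries, 10 overlapped and 0 were called, with a median log2 fold change of 0.01 (0.00 over all tested genes). Over all tested genes, 12.5% were higher and 15.7% lower in both. The adaptor gene Myd88 was at 2862 and 2969 in WT against 3081 and 3333 in Helios KO (0.14, SE 0.10).

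The kinase gene Irak4 (0.07, SE 0.17), the ubiquitin ligase gene Traf6 (0.03, SE 0.09) and the kinase gene Map3k7 (0.09, SE 0.09), which act in turn after Myd88, had small log2 fold changes. The 3 genes of this list with the smallest p were Map3k8 (0.25, SE 0.10), Peli1 (-0.23, SE 0.10) and Irak2 (-0.19, SE 0.09). Of 6 tested genes that process or release IL-1 and IL-18, 0 were called and 1, the DNA sensor gene Aim2 (-0.23, SE 0.10), was lower in both knockout libraries, near the 15.7% of all tested genes. Nlrc4 (0.43, SE 0.48) and Casp4 (-0.08, SE 0.13) followed by p. Casp1, which cleaves both cytokines, was chosen after its values were seen and was at 1630 and 1576 in WT against 1434 and 1935 in Helios KO.

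Of 17 tested genes linked to ST2-positive Tregs, 3 were higher and 3 lower in both knockout libraries, 11 overlapped and 0 were called, with a median log2 fold change of 0.09 (0.00 over all tested genes). Both counts were near the background of 12.5% higher and 15.7% lower. Gata3, which encodes a transcription factor known to promote ST2 expression in Th2 cells, was at 21095 and 18363 in WT against 21671 and 20372 in Helios KO. The members with the smallest p were Itgae (-0.71, SE 0.11), an integrin chain, Il10 (1.33, SE 0.29), an anti-inflammatory cytokine, and Rora (-0.73, SE 0.16), a nuclear receptor.

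Among 8 tested genes linked to the response of lymphocytes to IL-18, 4 were higher in both knockout libraries (12.5% of all tested genes), 0 lower (15.7%) and 0 called. Their median log2 fold change was 0.46 (0.00 over all tested genes), and the median difference was 0.14 for replicate 1 and 0.73 for replicate 2. Gadd45g was at 1036 and 1057 in WT against 1198 and 1461 in Helios KO, and Cxcr3, a chemokine receptor, at 3351 and 2357 and at 3702 and 3692. Ifng, a cytokine induced by IL-18, was at 99.6 and 119 in WT, 158 in replicate 1 and 1196 in replicate 2. The summed marker lists of other blood cells, given next, NK cells among them, were also highest in replicate 2. Their part in the values of Ifng was not tested.

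Several of the receptor genes are known to be expressed by other blood cells, Il18rap and Il18r1 by NK cells, Il1rl1 by mast cells, basophils and eosinophils, and Il1r2 by neutrophils. The summed level of 11 NK cell markers was 4459 and 5716 in WT, 3920 in Helios KO replicate 1 and 31489 in replicate 2, and all 11 were highest in replicate 2, among them Klre1 (841), Eomes (679) and Gzma (6114). The libraries stood in the order of this sum for Il18rap and for Il1r1, with replicate 1 of the knockout lowest and replicate 2 highest. Ncr1, Gzma, Nkg7, Klrd1 and Itga2 shared this full order, and Klrb1c, Klrk1, Gzmb, Prf1, Eomes and Klre1 did not. Outside replicate 2, Nkg7 and Gzmb made up most of the sum. Nkg7 was at 2237 and 2518 in WT and 1984 in replicate 1, and Gzmb at 699, 1718 and 990. Il18r1 was at 312 in replicate 1 and at 628 in replicate 2, both below WT. The part of NK cells in the values of Il18rap and Il18r1 was not tested.

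Basophil and mast cell markers summed to 378 and 431 in WT, 239 in Helios KO replicate 1 and 3703 in replicate 2, with 4 and 3 of 11 listed at 0 in WT and 2 in replicate 1, and replicate 2 held Hdc at 1011, Ms4a2 at 77.4 and Cpa3 at 244. Most of that sum outside replicate 2 was Kit, at 264 and 324 in WT and 141 in replicate 1. Eosinophil markers (7 genes) summed to 94.9 and 153 in WT, 137 in replicate 1 and 1932 in replicate 2. Nearly all of this sum outside replicate 2 was Ccr3, at 87.6 and 143 in WT and 136 in replicate 1. Ccr3, the only tested gene of the list, was at 821 in replicate 2. Epx, a granule peroxidase chosen after its values were seen, was listed at 0 in the other libraries and at 105 in replicate 2. Il1rl1 was at 573 in replicate 1 and 588 in replicate 2, and the part of these cells in its values was not tested.

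Neutrophil markers (15 genes) summed to 878 and 631 in WT, 963 in Helios KO replicate 1 and 43187 in replicate 2, with Cxcr2 at 95.9, Mmp9 at 2921 and S100a8 at 3782 there. Macrophage and monocyte markers (12 genes) summed to 3226 and 5147 in WT, 1722 in replicate 1 and 116873 in replicate 2, with Cd68 at 3454 and Mertk at 798 there. Il1r2 was highest in replicate 2 as well (2542 against 1281 to 1874 in the other libraries), and the part of neutrophils in that was not tested. The sums of replicate 2 were also the highest for B cells (3845 against 1411 to 2840 elsewhere), dendritic cells (5058 against 591 to 739) and erythroid cells (19212 against 537 to 934). Markers of T cells (10 genes) summed to 381063 to 431856 across the 4 libraries.

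**Figure D4:**
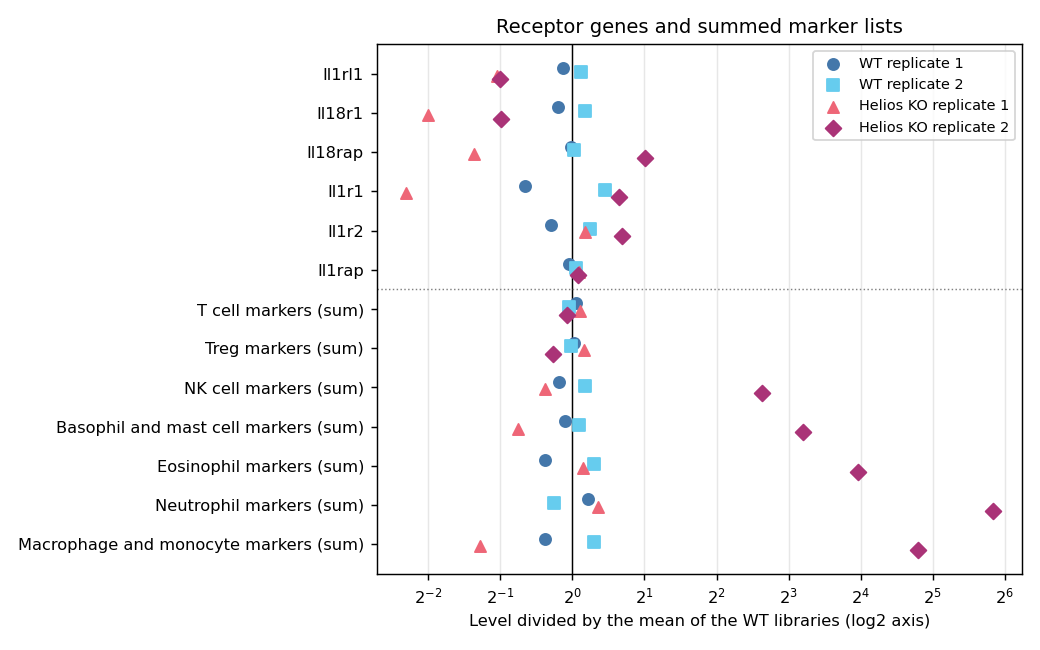
Level of each receptor gene, and summed level of marker lists, divided by the mean of the WT libraries (log2 axis), 1 point per library. The lists of other blood cells are highest in Helios KO replicate 2, where Il18rap, Il1r1 and Il1r2 are also highest. Il1rl1 lies at about the same level in both Helios KO libraries. The part of other blood cells in the receptor levels was not tested.

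Profiles over the 4 libraries, centred on each gene's mean in log2(value + 1), were compared by Euclidean distance among tested protein-coding genes. With 4 points, many genes can lie close by, and the distances are descriptive. Closest to Il1rl1 were Ptpn5 (0.0924), Ptpn4 (0.107), Serp2 (0.111), Fut10 (0.113) and Plcd1 (0.128). Ptpn5, a tyrosine phosphatase gene, was at 1793 and 2069 in WT against 918 and 891 in Helios KO. Closest to Il18r1 were Amdhd1 (0.185), Cx3cl1, Ttc16, Cysltr1 and Serpine2 (0.300), none of which is among those closest to Il1rl1.

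Closest to Il18rap were Lima1 (0.206), Rnd1, Cxcl13, Tiam2 and Appl2 (0.306). Appl2, an endosomal adaptor gene, was at 1833 and 1819 in WT, 792 in Helios KO replicate 1 and 3042 in replicate 2. Closest to Il1r1 was Il1rn (0.171), followed by Fstl1, Mmp25, Apol7b and Slc6a13 (0.386). Closest to Il1r2 were Ccnb1 (0.0735), Cenpi, Adam8, Celsr3 and Cenpk (0.122), of which Ccnb1, Cenpi and Cenpk act in cell division. Il1rap, with its flat profile, lay within 0.0189 of Smim11, Sar1b, Sec11a, Thumpd3 and Mrps18c.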

How the data were processed

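RNA was measured in CD4+CD25+ cells of 2 WT and 2 Helios KO libraries. Per the labels' protocols, 5 ng of RNA gave full-length cDNA in 10 PCR cycles, and Tn5 libraries were amplified for 12 cycles. The submitters' processing notes name bcl2fastq 2.17.1.14 and the build mm10. For the aligner and counter, the name is not given in the sources used here. Per the file headers, the signal values deposited by the authors are normalised counts scaled by the median length of a gene's transcripts in kb. They were fitted as log2(value + 1) with limma 3.58.1 in R 4.3.3 (genotype only, trend and robust, two-sided), keeping genes at 10 or more in at least 2 libraries. Fold changes on this scale understate changes of low genes. Because values are scaled by length, no count model was used as the main test.

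Reads were recovered as multiples of the value of 1 read, using GENCODE M21 lengths. Of 58026 nonzero values, 97.2% came out whole within 0.01 read. Intervals cover counting error only. Members and lists were chosen with earlier results of these data known. Named genes are the receptor genes, ligands, relatives and neighbours, up to 3 genes of smallest p in each list described, a fixed set of signalling and Treg genes and the 5 nearest profiles per receptor gene. Casp1, Epx, Kit and further NK cell markers were named after their values were seen. Alternatives changed 1 choice at a time. Of the 21951 protein-coding genes annotated, 4425 come later in identifier order than the last table entry and are not analysed here.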

Additional observations from a re-analysis of the deposited data

How the results depend on the processing

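Scaling by median ratios or by totals of recovered reads, dropping the filter on low values, asking for a mean of 10 CPM or more, limma-voom, a pseudocount of 0.1, leaving out antigen receptor, haemoglobin, sex-linked and other blood cell genes, and the replicate block each gave 0 called genes and left every receptor gene on its side of 0 and uncalled. Il1r1 has no value under the CPM filter, which it did not pass. Asking in addition for an absolute log2 fold change of 1 or more also gave 0 called genes. No scaling moved the median of all genes by over 0.1.

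Leaving out each library gave 0 to 758 called genes, namely 758 without Helios KO replicate 1, 40 without Helios KO replicate 2 and 0 without either WT library. The log2 fold change ranged from -1.14 to -0.90 for Il1rl1, from -1.99 to -0.98 for Il18r1, from -1.36 to 1.00 for Il18rap, from -2.04 to 0.72 for Il1r1, from 0.18 to 0.73 for Il1r2 and from 0.04 to 0.13 for Il1rap. Il18rap (1.00) and Il1r1 (0.72) turned to higher without Helios KO replicate 1, since the remaining knockout library lay above WT. With a lone knockout library the fit assumes that it varies like WT, and the cause of the added calls was not tested. Il18r1 and Il18rap were called without Helios KO replicate 2, and Il1rl1, Il18r1 and Il18rap without Helios KO replicate 1. Nothing is read from these calls, since the genes were chosen by this difference and both fits share the WT pair.

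The replicate numbers are shared by the groups, but the labels name no shared mouse, litter or day. Same-numbered libraries deviated together with r = 0.106 over 11571 genes. With the replicate block the log2 fold change of Il1rl1 was -1.02, that of Il18r1 -1.48 and that of Il18rap -0.18, with 0 genes called and 335 at an unadjusted p under 0.05.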
